A study of Homo sapiens with 4 samples.

Results

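The comparison described here is between a pair of arrays of A549, an established human lung adenocarcinoma cell line: cells given an siRNA against hMOF and cells given a scramble siRNA. It rests on 2 of the 4 arrays of the series, and the remaining 2 hold the same pair of treatments in H1299, a human non-small cell lung carcinoma line. The arrays were chosen by the cell line in their source name and title, and the treatment by the title and source name. A separate treatment tag contradicts those fields for 2 of the 4 arrays, where it gives the opposite siRNA (the A549 scramble array and the H1299 hMOF array), so it was not used. Per the labels, both lines were grown in DMEM with 10% FBS, transfected with Lipofectamine 2000 and lysed in Trizol, and biotinylated cRNA was made from 6 ug of total RNA. The labels used here give neither the siRNA sequence, the time after transfection, nor the number of cultures behind an array. With 1 array per line and treatment, the A549 difference has no replicate check and no test. A value of an A549 gene is therefore its signal on each array and the log2 ratio between them.

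hMOF, the product of KAT8, is a lysine acetyltransferase of the MYST family that acetylates a lysine in the tail of histone H4. It works in a pair of complexes, MSL and NSL, which carry it to different parts of genes: the NSL complex sits mainly at promoters of widely expressed genes, and the MSL complex is known from dosage compensation in flies. Acetylation of the histone H4 tail opens chromatin fibres and is linked to active transcription.

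The arrays carried 54675 probe sets, short groups of oligonucleotides that report on a transcript. Of these, 41091 were annotated to a single gene and covered 19775 genes. A gene was kept where its probe set had a mean A549 signal of at least 75.45, the middle of all such means, and each gene was read from its probe set with the highest mean A549 signal. That left 12791 genes. The mean is over both A549 arrays, so a gene weak on 1 array could be kept through the array where it was high. The counts of 2-fold genes include such genes. Ratios are log2 of (signal + 29.68) in the hMOF siRNA array over the same in the scramble array. The offset of 29.68 is the 20th percentile of the A549 signals, and it draws the ratios of weak probe sets towards 0. A gene is called 2-fold higher or lower where this ratio reaches 1 in size. Signals compare a probe set between arrays and do not rank different genes against each other.

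The cells matched their label. Of 13 markers of the A549 line, 12 had a probe set, and all 12 were above the signal minimum. Their summed signal was 102670 with scramble siRNA and 92734 with hMOF siRNA, against 4034 and 3125 in H1299. The aldo-keto reductase AKR1B10 read 15007 and 12909 in A549, against 30.0 and 27.2 in H1299. The median signals were 75.3 and 75.4 on the A549 arrays, and the Pearson correlation of log2 values between them was 0.988 across probe sets, which are not independent replicates. Of 9 fibroblast markers, 3 were above the minimum (THY1, PDGFRA and COL1A1), and the defining markers DCN (64.4 and 70.4) and LUM (56.1 and 50.8) were below it in both A549 arrays.

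The targeted gene was lower where the labels say it should be. KAT8 read 402 in A549 with scramble siRNA and 106 with hMOF siRNA, so 26.4% of the signal was left (log2 ratio -1.67). In H1299 the same probe set read 241 and 61.8. A second KAT8 probe set read 61.6 and 51.6 in A549, below the signal minimum on both arrays. In whole-culture RNA, a lower signal from fewer cells that hold a transcript and one from less transcript per cell cannot be told apart.

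Across A549 genes, 95 were at least 2-fold higher with hMOF siRNA, which is 0.743% of the genes kept, and 148 were at least 2-fold lower, which is 1.16%. Together they are 1.90% of the genes. Most genes were close to equal on both arrays: the median log2 ratio was -0.02, ratios between the quartiles ran from -0.20 to 0.14, and 65.2% of genes were within 0.25 of 0. At 1.5-fold, 449 genes were higher (3.51%) and 749 lower (5.86%). The scatter of signals shows the 2-fold genes spread over the range of signal, with the smallest share in the weakest of 4 equal bins (0.469%) and the largest in the next to strongest (3.28%). With quantile normalization the split was 124 higher and 128 lower, and with a loess curve of the ratio on signal removed it was 118 and 131, so the excess of lower genes depended on the scaling.

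**Figure D1:**
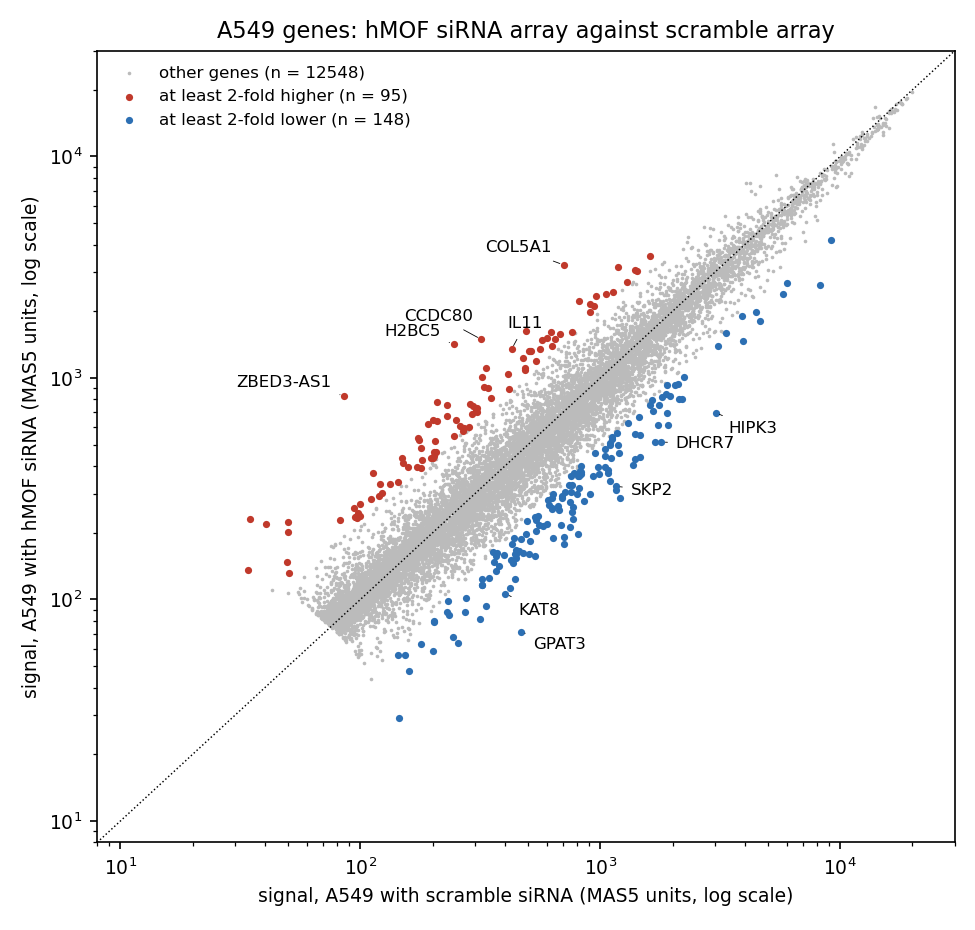
Signal of each of 12791 genes on the A549 scramble array (x) and the A549 hMOF siRNA array (y), both in MAS5 units on log scales, 1 array per axis; the dotted line marks equal signals. Red points are the 95 genes at least 2-fold higher and blue points the 148 at least 2-fold lower; KAT8 lies at 402 and 106, COL5A1 at 704 and 3236.

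The only fit with a residual treats the lines as repeats: limma over the 4 arrays, with cell line as a block and Benjamini-Hochberg adjustment at 0.05. After hMOF siRNA, 196 genes were called higher (1.53%) and 384 lower (3.0%), on 1 residual degree of freedom. It called 46 of the 95 genes that were 2-fold higher in A549 and 117 of the 148 that were 2-fold lower. The fit contains the A549 ratios, so it is no independent support for genes picked by those ratios. In what follows, "rose" and "fell" are used only of genes this fit called. A gene given by its values alone may or may not be called. A difference in effect between A549 and H1299 could not be tested, since such a test leaves no residual.

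The partners of hMOF were near equal, apart from MSL1. Of 13 kept members of the MSL and NSL complexes, counted without KAT8, 1 was 2-fold higher, none was 2-fold lower, and the median log2 ratio was 0.08. MSL1, the scaffold of the MSL complex, rose from 906 to 1977 in A549 (1.10) and from 774 to 1571 in H1299 (limma adjusted p = 0.0270). Its other kept probe sets read 1366 and 1298, and 122 and 133, so the 3 probe sets of MSL1 did not move together. The MSL2 log2 ratio was 0.17, that of MSL3 was -0.23, that of KANSL1 was 0.13 and that of the NSL subunit MCRS1 was 0.30. None of the 24 other lysine acetyltransferase genes was 2-fold changed. KAT6A, another MYST-family enzyme, fell from 1077 to 589 (-0.84; limma adjusted p = 0.0296). None of the 17 deacetylase and sirtuin genes was 2-fold changed, and their log2 ratios ran from -0.30 (SIRT7) to 0.31 (HDAC1).

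Genes of the extracellular matrix were the largest group among the 2-fold higher genes on any pathway list. Of 41 kept collagen and matrix genes, 6 were 2-fold higher and none 2-fold lower, beside 0.743% and 1.16% of all genes, and the list's median log2 ratio was 0.25 in A549 and -0.10 in H1299. At 1.5-fold, 15 were higher and 1 lower, beside 3.51% and 5.86% of all genes. limma over both lines called 1 of the 41 higher (COL5A2) and none lower, beside 1.53% and 3.0% of all genes. The other ratios are thus single-array differences.

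Fibrillar collagens give tissue its tensile strength. COL5A1, a chain of type V collagen that sets fibril diameter, read 704 with scramble siRNA and 3236 with hMOF siRNA (log2 ratio 2.15). Its other probe sets read 486 and 1881, and 162 and 660, so the 3 probe sets were high on the same array. COL5A2, the partner chain, rose from 4205 to 7596 (0.85; limma adjusted p = 0.0325). COL1A1, the main chain of type I collagen, read 541 and 1191 (1.10). A second COL1A1 probe set read 154 and 332, while 2 more above the minimum were level at 156 and 173, and 112 and 111.

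Type IV collagen forms the network of basement membranes, and its 6 chains were all above 0. COL4A4 read 208 and 780 (1.77), with a second probe set at 126 and 462 and another at 86.1 and 106. COL4A1 read 1234 and 2493, just under the 2-fold threshold. The log2 ratio was 0.72 for COL4A6, 0.67 for COL4A3, 0.53 for COL4A2 and 0.02 for COL4A5. COL7A1, whose product anchors basement membranes to the matrix beneath, read 966 and 1822 (0.90). Of all 17 collagen chains kept, 14 were above 0, 9 were at least 1.5-fold higher and none was 1.5-fold lower, with a median of 0.61. Over all genes, 53.5% were below 0, 3.51% were 1.5-fold higher and 5.86% were 1.5-fold lower.

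Glycoproteins of the matrix were mixed. CCDC80, a secreted matrix protein, read 319 and 1493 (2.13), and a second probe set read 160 and 573. EFEMP1, a fibulin, read 1424 and 3050 (1.08). TNC, the adhesion-modulating tenascin C, read 98.0 and 245 (1.10), and its ratio falls to 0.96 with the larger offset. FBN1, the main microfibril protein, read 224 and 461 (0.95), and THBS1 read 785 and 1473 (0.88). FN1, fibronectin, was nearly level at 11066 and 10119. The laminin chains did not share the direction of the collagens: 5 of 6 were below 0, beside 53.5% of all genes. Their median was -0.14, with LAMA4 (113 and 242) the exception. LOX, which cross-links collagen, went the other way at 320 and 184 (-0.71), as did SPARC at 696 and 472 (-0.53).

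**Figure D2:**
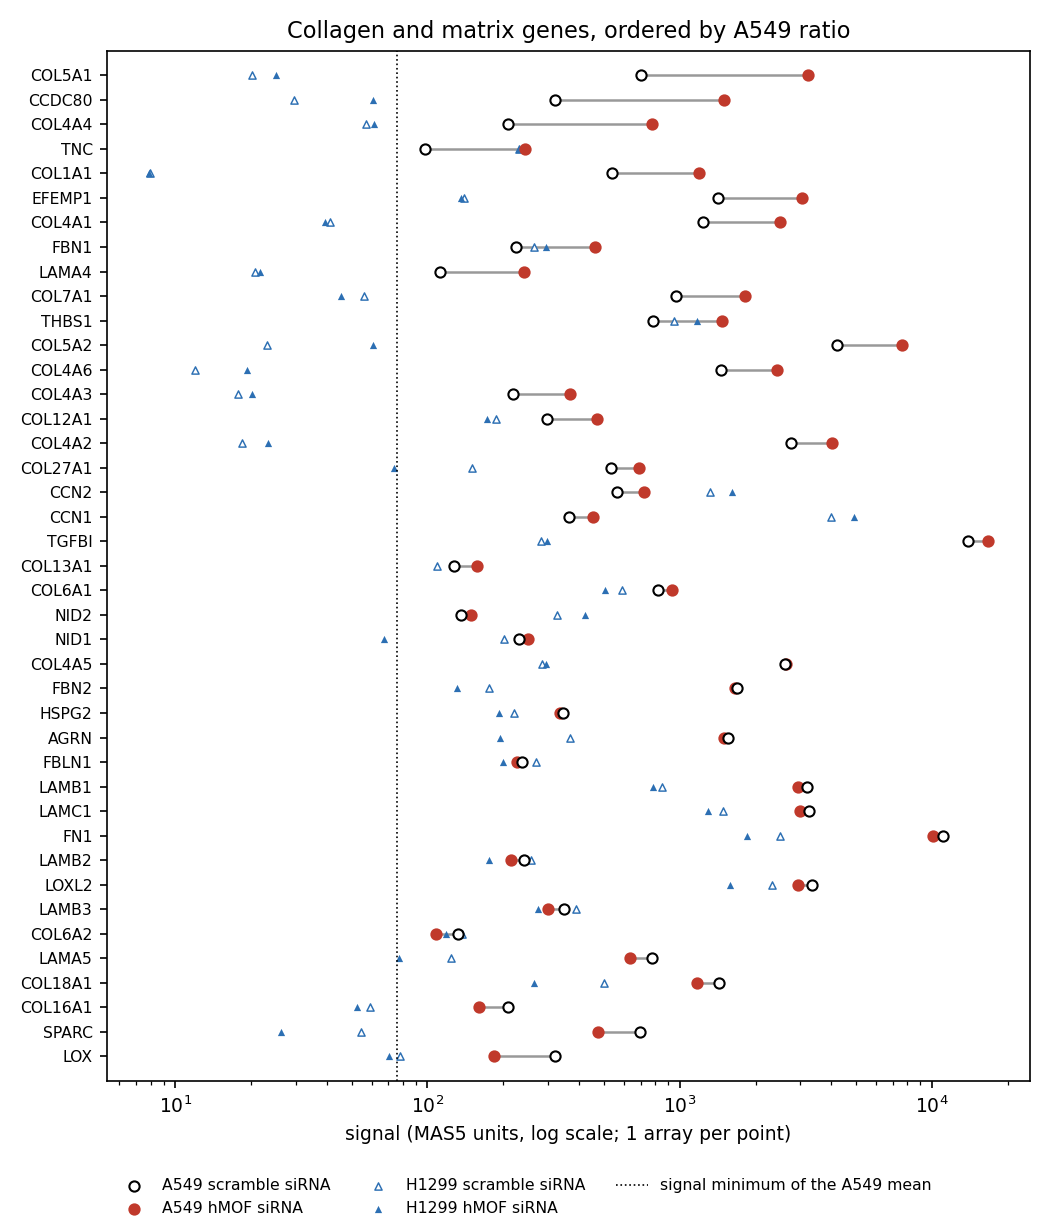
Signals of the 41 kept collagen and matrix genes (rows, ordered by A549 ratio) on the 4 arrays, in MAS5 units on a log scale, 1 array per point. In A549 (circles) the upper rows lie further right with hMOF siRNA, from COL5A1 (704 to 3236) down to LOX (320 to 184); 14 of the 41 genes have a mean H1299 signal (triangles) under the dotted signal minimum.

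In H1299 most of the 2-fold higher matrix genes were weak. Of the 6 matrix genes 2-fold higher in A549, 4 had a mean H1299 signal under the minimum (COL5A1 read 20.2 and 25.2 there, and COL1A1 read 7.97 and 7.89). The 2 above it were level in H1299: EFEMP1 read 139 and 136, and TNC read 232 and 231. Summed over the 9 fibroblast markers, the A549 signal was 1068 with scramble siRNA and 1746 with hMOF siRNA. COL1A1 alone made up most of that difference, and the other fibroblast markers above the minimum read 107 and 120 (PDGFRA) and 120 and 104 (THY1).

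Mesenchymal and TGF-beta genes gave single members rather than a shift. Of 18 kept mesenchymal identity genes, 2 were 2-fold higher and none 2-fold lower, beside 0.743% and 1.16% of all genes. The list's median was 0.03. ACTA2, the smooth muscle actin of contractile fibroblasts, read 176 and 523 (1.42). SNAI1, a repressor of epithelial genes, read 50.6 and 131, just past the threshold, and its log2 ratio is 0.80 with the larger offset. Its scramble signal was under the minimum, so SNAI1 was kept through the hMOF siRNA array. VIM read 9367 and 11326 (0.27) and CDH2 read 2849 and 3733 (0.39). Of 25 epithelial genes none was 2-fold changed, and CDH1, the epithelial cadherin, was level at 1535 and 1562.

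Of 33 kept genes of TGF-beta and BMP signalling, 1 was 2-fold higher and 2 were 2-fold lower, beside 0.743% and 1.16% of all genes. The list's median was 0.00. limma over both lines called 4 of the 33 lower and none higher, beside 3.0% and 1.53% of all genes. LTBP2, a latent TGF-beta binding protein of microfibrils, read 418 and 892 (1.04). Its other probe set read 443 and 703, and LTBP2 was under 2-fold in 3 of 10 alternatives (0.63 at the least). FST, which traps activins, read 75.7 and 174 (0.95). The receptor TGFBR1 read 4227 and 7012 (0.73). On the BMP side, the transducer SMAD5 fell from 1388 to 429 (-1.63; limma adjusted p = 0.0239), and its other kept probe sets were lower on the same array. The BMP target ID2 fell from 3009 to 1624 (-0.88; limma adjusted p = 0.0321), and ID1 read 4334 and 2321 (-0.89; limma adjusted p = 0.103). GDF15, a stress-induced member of the TGF-beta family, read 504 and 160 (-1.50) in A549 and 33.9 and 41.8 in H1299.

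Integrins connect cells to this matrix. Of 15 kept, 1 was 2-fold lower, beside 1.16% of all genes. It was ITGA2, a chain of a collagen receptor. ITGA2 fell from 1462 to 440 in A549 (-1.67) and from 903 to 154 in H1299 (limma adjusted p = 0.0242). ITGB8 had the highest log2 ratio of the list, 0.83, and ITGA11 followed at 0.70.

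Histone genes were the second group with several 2-fold higher members. Of 24 kept, 3 were 2-fold higher and none 2-fold lower, 10 were at least 1.5-fold higher and none 1.5-fold lower, and the median log2 ratio was 0.41 in A549 and 0.14 in H1299. Over all genes, 0.743% were 2-fold higher and 3.51% were 1.5-fold higher. limma over both lines called 4 of the 24 higher, beside 1.53% of all genes. Core histones package DNA into nucleosomes, and most of their genes lie in clusters on chromosome 6.

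H2BC5, an H2B gene, rose from 244 to 1425 in A549 (2.41) and from 520 to 1546 in H1299 (limma adjusted p = 0.0295). A second probe set of H2BC5 read 189 and 567 in A549. Both H2BC5 probe sets have names ending in _x_at, a mark of those able to match other sequences. H2BC5 has no value without such probe sets. Its neighbour H2AC6, an H2A gene, read 515 and 1329 in A549 (1.32), against 981 and 1406 in H1299 (limma adjusted p = 0.0839). H2AJ, an H2A variant gene outside the clusters, rose from 1390 to 3066 (1.12; limma adjusted p = 0.0242) on a probe set with the same mark. A probe set of H2AJ without that mark read 190 and 200, so the ratio of H2AJ depends on the probe set. MACROH2A2, a variant histone of repressed chromatin, rose from 897 to 1386 (0.61; limma adjusted p = 0.0445).

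The H2B genes moved the same way in A549: 7 of 7 kept were above 0, 5 were at least 1.5-fold higher, and the median was 0.84, against 0.01 in H1299. Over all genes, 53.5% were below 0 in A549 and 3.51% were 1.5-fold higher. The 3 linker histone genes were below 0, with a median of -0.14. Histone genes of a class are nearly identical in sequence, so a probe set can read more than its named gene, and the members are not separate measurements. Without the probe sets marked _x_at, the histone median was 0.09. Only that mark was used, so probe sets ending in _s_at, such as that of H2AC6, stayed in.

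The promoters of the 2 neighbouring histone genes are shown because both were higher on the same array and both hold several copies of the CCAAT box, a sequence bound by the factor NF-Y. The 250 bases before the first listed start come from RefSeq on GRCh38.p14, plus strand, and capitals mark CCAAT or its reverse complement. H2AC6 lies at chr6:26123922-26124171 and H2BC5 at chr6:26157871-26158120.
H2AC6: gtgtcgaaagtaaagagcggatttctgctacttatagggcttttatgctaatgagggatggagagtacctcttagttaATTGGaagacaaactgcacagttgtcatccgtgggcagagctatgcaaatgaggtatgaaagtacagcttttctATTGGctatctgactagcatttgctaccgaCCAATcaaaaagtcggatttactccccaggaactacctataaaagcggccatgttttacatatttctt
H2BC5: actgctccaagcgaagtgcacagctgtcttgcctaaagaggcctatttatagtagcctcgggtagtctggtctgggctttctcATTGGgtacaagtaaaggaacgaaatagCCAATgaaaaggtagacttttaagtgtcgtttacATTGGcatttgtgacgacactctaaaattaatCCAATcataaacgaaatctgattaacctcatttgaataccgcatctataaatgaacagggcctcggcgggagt
H2AC6 holds 3 matches, with the nearest 68 bases before the start, and H2BC5 holds 4, with the nearest 73 bases before it. CCAAT was found on either strand in 18 of 23 histone promoters (78.3%), beside 33.0% of 27305 promoters in the table. The median A549 log2 ratio was 0.41 for the 18 genes with it and 0.10 for the 5 without. A match is a description of the letters and not a measurement of binding.

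Genes of hypoxia and glycolysis were lower as a list. Of 40 kept, 37 were below 0 in A549, beside 53.5% of all genes. The list's median log2 ratio was -0.38 in A549 and -0.07 in H1299. Of the 40, 2 were 2-fold lower and none 2-fold higher, beside 1.16% and 0.743% of all genes. At 1.5-fold, 10 were lower and 1 higher, beside 5.86% and 3.51% of all genes. limma over both lines called 1 lower (PKM) and 1 higher (PFKL), beside 3.0% and 1.53% of all genes.

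NDRG1, a stress gene induced by hypoxia, read 1735 and 612 in A549 (-1.46; limma adjusted p = 0.0540). In H1299 it read 82.5 and 37.9, which is below the minimum as a mean. ENO2, the neuronal enolase of glycolysis, read 822 and 382 (-1.05) and is under 2-fold after quantile normalization (-0.97). PDK1, which keeps pyruvate out of mitochondria, read 417 and 212 (-0.88). MXI1, a MYC antagonist, read 1322 and 724 (-0.84), and BNIP3, a mitophagy receptor, read 5619 and 3160 (-0.82). PKM, pyruvate kinase, fell from 2263 to 1270 (-0.82; limma adjusted p = 0.0298). HK2, a hexokinase, read 142 and 70.4 (-0.78), with the hMOF siRNA signal under the minimum. EGLN3, an oxygen-sensing prolyl hydroxylase, read 822 and 486 (-0.72).

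The abundant glycolytic transcripts moved little. The log2 ratio was -0.09 for GAPDH, -0.13 for ALDOA, -0.18 for LDHA and -0.41 for PGK1. VEGFA, the angiogenic factor, was level at 1656 and 1633. The members above 0 were PFKL, a phosphofructokinase, which rose from 353 to 614 (0.75; limma adjusted p = 0.0383), ERO1A (0.53) and P4HA2 (0.27). ADM, adrenomedullin, was lower in A549 (2838 and 1671) and higher in H1299 (1048 and 1523).

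The core of the hypoxia response element, ACGTG, was found on either strand in the 250 bases before the start of 19 of 37 promoters of the list (51.4%), beside 18.7% of all promoters. The median A549 log2 ratio was -0.41 for the 19 with it and -0.34 for the 18 without. ENO2, which has the motif and was 2-fold lower, is shown with ACGTG in capitals, 118 bases before the start (GRCh38.p14, plus strand, chr12:6914330-6914579, RefSeq).
ENO2: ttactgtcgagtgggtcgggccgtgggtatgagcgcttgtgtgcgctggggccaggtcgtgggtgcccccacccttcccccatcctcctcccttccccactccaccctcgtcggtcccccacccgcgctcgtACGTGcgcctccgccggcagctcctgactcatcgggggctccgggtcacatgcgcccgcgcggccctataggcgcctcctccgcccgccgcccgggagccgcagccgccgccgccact

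Cholesterol synthesis had the lowest median of the lists described here. Of 21 kept genes, 17 were below 0, 1 was 2-fold lower, none was 2-fold higher, and the median log2 ratio was -0.44 in A549 and -0.12 in H1299. Over all genes, 53.5% were below 0 in A549, 1.16% were 2-fold lower and 0.743% were 2-fold higher. At 1.5-fold, 6 were lower and 1 higher, beside 5.86% and 3.51% of all genes. limma over both lines called 3 lower and 1 higher, beside 3.0% and 1.53% of all genes.

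DHCR7, the enzyme of the last step to cholesterol, fell from 1794 to 514 in A549 (-1.75) and from 1024 to 448 in H1299 (limma adjusted p = 0.0296). A second DHCR7 probe set read 528 and 238. HSD17B7, an enzyme of the later sterol steps, fell from 1242 to 719 (-0.76; limma adjusted p = 0.0337), and STARD4, a sterol carrier, fell from 553 to 320 (-0.74; limma adjusted p = 0.0437). HMGCS1, an early enzyme, read 2286 and 1193 (-0.92), MSMO1 read 3697 and 1988 (-0.88) and IDI1 read 2590 and 1522 (-0.76). Early steps were not uniform: MVK (0.20), MVD (0.06) and FDPS (0.05) were near 0, and PMVK rose from 356 to 689 (0.90; limma adjusted p = 0.0285). The regulators SREBF1 and SREBF2 had log2 ratios of -0.30 and -0.25. The sterol regulatory motif TCACNCCAC was found in 1 of 19 promoters of the list (5.26%), beside 0.875% of all promoters.

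Fatty acid and triglyceride genes followed with a median of -0.26, close to the -0.25 of H1299. Of 29 kept, 1 was 2-fold lower, none 2-fold higher, and 9 were at least 1.5-fold lower. Of all genes, 1.16% were 2-fold lower and 5.86% were 1.5-fold lower. GPAT3, an acyltransferase that starts glycerolipid synthesis, had the lowest ratio of all genes kept. It fell from 467 to 71.3 in A549 (-2.30) and from 1524 to 450 in H1299 (limma adjusted p = 0.0239). The A549 hMOF siRNA signal of GPAT3 was under the minimum, so it was kept through the scramble array. ACLY, which makes cytosolic acetyl-CoA from citrate, fell from 7988 to 5190 (-0.62; limma adjusted p = 0.0489). ACSS2, which makes it from acetate, fell from 609 to 387 (-0.61; limma adjusted p = 0.0441), as did the acyl-CoA synthetase ACSL1 (1065 and 680; limma adjusted p = 0.0488). FASN, fatty acid synthase, read 1086 and 640 (-0.74; limma adjusted p = 0.103), and the lipid droplet protein PLIN2 read 3750 and 2244 (-0.73; limma adjusted p = 0.0720).

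Interferon-stimulated genes had the most 2-fold lower members of any list. Of 45 kept, 4 were 2-fold lower and none 2-fold higher, 13 were at least 1.5-fold lower and 1 higher, 36 were below 0, and the median log2 ratio was -0.28 in A549 and -0.18 in H1299. Over all genes, 1.16% were 2-fold lower, 5.86% were 1.5-fold lower and 53.5% were below 0. limma over both lines called 5 lower and none higher, beside 3.0% and 1.53% of all genes.

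The regulators came first in size. IRF7, a transcription factor that amplifies interferon production, read 475 and 162 in A549 (-1.39), against 243 and 137 in H1299 (limma adjusted p = 0.0535). IRF9, the DNA-binding part of the complex that acts under type I interferon, fell from 1044 to 395 in A549 (-1.34) and from 409 to 157 in H1299 (limma adjusted p = 0.0239). Of the antiviral effectors, IFITM1, a membrane protein that blocks virus entry, read 576 and 215 (-1.31) in A549 and 34.5 and 30.8 in H1299. MX1, a dynamin-like GTPase, read 320 and 116 (-1.27) in A549 and 14.6 and 17.97 in H1299. IFITM1 and MX1 were thus below the signal minimum in H1299.

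IFIT3 fell from 423 to 206 (-0.94; limma adjusted p = 0.0470), the nucleotide hydrolase SAMHD1 from 757 to 428 (-0.78; limma adjusted p = 0.0437), PARP14 from 801 to 472 (-0.73; limma adjusted p = 0.0357) and the RNA-sensing kinase EIF2AK2 from 1281 to 771 (-0.71; limma adjusted p = 0.0463). Other members were near 0: ADAR read 4446 and 4429, TAP1 read 776 and 792, and IFITM3 read 3450 and 3611. PSMB8, a subunit of the immunoproteasome, was the highest at 315 and 527 (0.69). Of 15 antigen presentation genes none was 2-fold changed, with a median of -0.01.

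The interferon-stimulated response motif (GAAA, any 2 bases, GAAA) was found on either strand in 21 of 39 promoters of the list (53.8%), beside 3.07% of all promoters. The median A549 log2 ratio was -0.48 for the 21 with it and -0.30 for the 18 without. IFITM1 was the only 2-fold lower member of the list with the motif among the 3 whose promoter is in the table, and it is shown with the motif in capitals, its first base 40 bases before the start (GRCh38.p14, plus strand, chr11:313790-314039, RefSeq).
IFITM1: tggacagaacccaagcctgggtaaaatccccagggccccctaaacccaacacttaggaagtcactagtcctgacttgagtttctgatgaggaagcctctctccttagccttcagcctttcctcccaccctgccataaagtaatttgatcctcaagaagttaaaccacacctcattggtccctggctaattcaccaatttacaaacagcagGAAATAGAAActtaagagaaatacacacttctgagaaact

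**Figure D3:**
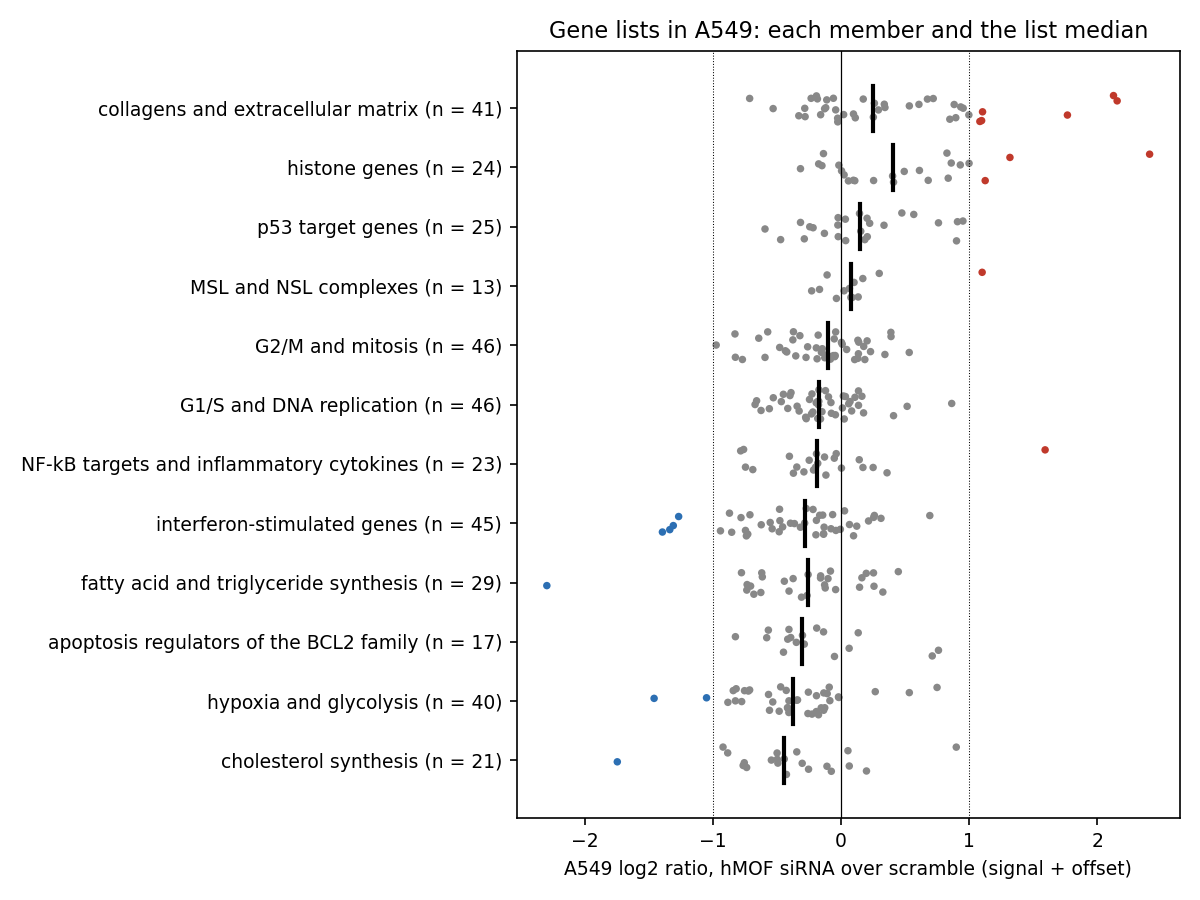
A549 log2 ratio, hMOF siRNA over scramble, of each kept member of 12 gene lists (points; red at least 2-fold higher, blue at least 2-fold lower) with the list median as a black bar; points are spread vertically to be visible, and 1 array stands on each side of a ratio. Medians run from 0.41 for histone genes and 0.25 for matrix genes to -0.38 for hypoxia and glycolysis and -0.44 for cholesterol synthesis.

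Inflammatory genes divided. Of 23 kept NF-kB targets and cytokines, 1 was 2-fold higher and none 2-fold lower, beside 0.743% and 1.16% of all genes. The list's median was -0.19. IL11, a cytokine of the IL-6 family made by stromal and epithelial cells, read 427 and 1347 in A549 (1.59), against 34.3 and 28.6 in H1299, and a second probe set read 109 and 160. The 5 kept CXC chemokines of this list were below 0, beside 53.5% of all genes, with a median of -0.35. CXCL8 read 5250 and 3037 (-0.78) and CXCL3 read 580 and 349 (-0.69). CXCL16, which is not on the list, was 2-fold lower at 178 and 63.0 (-1.16). Its hMOF siRNA signal was under the minimum, so CXCL16 was kept through the scramble array. CCL20 read 241 and 130 (-0.76). IL6 was near level at 307 and 264.

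SKP2, the substrate receptor of the ubiquitin ligase that marks CDK inhibitors for degradation, was among the 15 lowest ratios. It fell from 1163 to 324 in A549 (-1.75) and from 1385 to 308 in H1299 (limma adjusted p = 0.0239), and a second probe set read 134 and 31.6. The other 11 of 12 kept genes of that ligase and its substrates were not 2-fold changed. CDKN1B, its best known substrate, read 1791 and 1692. CDKN1A read 1606 and 1594 in A549, and 1707 and 731 in H1299.

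Cell cycle genes were slightly low in A549 and slightly high in H1299. None of 46 replication genes and none of 46 mitotic genes was 2-fold changed in A549. The G1/S list had a median log2 ratio of -0.17 in A549, with 31 of 46 below 0, and 0.21 in H1299. The mitotic list had a median of -0.11, with 30 of 46 below 0, and 0.33 in H1299. In A549, 53.5% of all genes were below 0. The most changed members in A549 went the same way in H1299. CCNB2, a mitotic cyclin, fell (log2 ratios -0.97 in A549 and -1.19 in H1299; limma adjusted p = 0.0274). RRM2, a subunit of ribonucleotide reductase, rose (0.86 and 1.07; limma adjusted p = 0.0296). FOXM1, a regulator of mitotic genes, had -0.83 and -0.40 (limma adjusted p = 0.0827). The difference between the lines was not tested.

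None of the 25 kept p53 targets was 2-fold changed. The list's median was 0.14 in A549 and -0.24 in H1299. XPC, a DNA damage sensor, rose from 707 to 1394 in A549 (0.95) and from 332 to 644 in H1299 (limma adjusted p = 0.0285). DDB2, which recognises ultraviolet damage, read 635 and 1218 in A549 (0.91), against 265 and 247 in H1299. TP53I3 read 2315 and 4348 in A549 (0.90), against 708 and 601 in H1299. BAX, which permeabilises mitochondria in apoptosis, read 428 and 745 in A549 (0.76), against 309 and 315 in H1299. MDM2 read 919 and 786 in A549, so this group was not uniform.

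BCL2 family genes had a median of -0.30, with 13 of 17 below 0, beside 53.5% of all genes. None of the 17 was 2-fold changed. BAK1, the relative of BAX, fell from 457 to 296 (-0.58; limma adjusted p = 0.0488), and BCL2L13 rose from 298 to 508 (0.71; limma adjusted p = 0.0437). None of 38 DNA repair genes was 2-fold changed, with BLM (-0.84) and ERCC4 (-0.82) the lowest.

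Several cellular machines held single 2-fold members while the median of their list was near 0. Among 30 genes of mitochondrial import and assembly, TOMM22, a receptor of the outer membrane, rose from 230 to 672 (1.43; limma adjusted p = 0.0296), and FMC1, an ATP synthase assembly factor, rose from 321 to 1008 (1.57; limma adjusted p = 0.0242). In the same list TIMM17B, a channel subunit of the inner membrane, fell from 1099 to 342 (-1.60), and ATPAF1, another assembly factor, fell from 764 to 249 (-1.51); both had a limma adjusted p of 0.0239. Of the 30, 2 were thus 2-fold higher and 2 were 2-fold lower, beside 0.743% and 1.16% of all genes. The list's median was -0.09. Of 68 subunits of oxidative phosphorylation, 1 was 2-fold lower and none 2-fold higher, beside 1.16% and 0.743% of all genes. This was COX7C, which fell from 9135 to 4194 (-1.12; limma adjusted p = 0.0296).

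Among 27 proteasome subunits, PSMC3 rose from 570 to 1481 (1.33; limma adjusted p = 0.0242). Among 28 Mediator subunits, MED11 rose from 190 to 619 (1.56; limma adjusted p = 0.0239), and MED28 fell from 886 to 496 (-0.80; limma adjusted p = 0.0308), though the mean of its probe sets was nearer 0 (-0.19). EMC6, of the ER membrane complex, rose from 620 to 1608 (1.33; limma adjusted p = 0.0270), while 8 of the 10 members kept were below 0, beside 53.5% of all genes. NOLC1, a nucleolar phosphoprotein, rose from 1180 to 3181 (1.41; limma adjusted p = 0.0239). The 45 genes of ribosome biogenesis had a median of -0.13, and 4 were at least 1.5-fold lower, beside 5.86% of all genes. PSMC3, MED11, EMC6 and NOLC1 were higher in H1299 as well. In A549 each was the only 2-fold gene of its list, beside 0.743% of all genes 2-fold higher and 1.16% 2-fold lower.

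In the glycoprotein folding cycle of the ER, 2 enzymes with opposing roles moved in opposite directions. GANAB, the glucosidase subunit that trims glucose, rose from 490 to 1631 (1.68; limma adjusted p = 0.0239), and its second probe set read 304 and 834. UGGT1, which adds glucose back to misfolded proteins, fell from 737 to 329 (-1.10; limma adjusted p = 0.0274), but its 4 other probe sets above the minimum had log2 ratios from -0.35 to 0.03. The other 32 of 34 genes of that list were not 2-fold changed, and the median was -0.03. Over all genes, 0.743% were 2-fold higher and 1.16% were 2-fold lower.

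Among 30 genes of the ATF4 pathway, which answers amino acid shortage, 2 were 2-fold lower, beside 1.16% of all genes. PHGDH, the first enzyme of serine synthesis, fell from 812 to 360 (-1.11; limma adjusted p = 0.0274), and STC2 fell from 714 to 306 (-1.15; limma adjusted p = 0.0336). A second STC2 probe set read 166 and 122, and the mean of both was under 2-fold (-0.76). Of 26 kept ubiquitin-conjugating enzyme genes, 2 were 2-fold lower, beside 1.16% of all genes, and the median was -0.07. UBE2F, a NEDD8-conjugating enzyme, fell from 702 to 178 (-1.82), and UBE2Q1 fell from 1690 to 514 (-1.66), both with a limma adjusted p of 0.0239. The other kept probe sets of UBE2F had log2 ratios of -1.27, -0.65 and -0.53, and with the probe set chosen on all 4 arrays UBE2F was not 2-fold (-0.65). Those of UBE2Q1 had -1.23 and -0.10, and their mean with the leading one was just under 2-fold.

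Of 28 genes of LKB1, AMPK and protein kinase A signalling 2 were 2-fold lower, and of 41 receptor kinase and MAPK genes 1 was, beside 1.16% of all genes. STRADB, a pseudokinase partner of LKB1, fell from 1161 to 311 (-1.81), and PRKAR2B, a regulatory subunit of protein kinase A, fell from 316 to 81.9 (-1.63), both with a limma adjusted p of 0.0239. MAP2K1, the kinase that activates ERK, fell from 3346 to 1593 (-1.06; limma adjusted p = 0.0247). The list of receptor kinases and MAPK feedback had 33 of 41 genes below 0, beside 53.5% of all genes. Its median was -0.19, with MET at -0.94 and the feedback phosphatase DUSP6 at -0.87. DOCK5, a target of YAP and TEAD, fell from 1196 to 457 (-1.33; limma adjusted p = 0.0239), beside a median of 0.00 over 26 such targets. Of its other kept probe sets, 2 had log2 ratios of -1.20 and -1.04 and 2 had -0.32 and -0.30, and the mean of DOCK5 probe sets was under 2-fold (-0.84). RB1CC1, a scaffold of autophagy initiation, fell from 1187 to 497 (-1.21; limma adjusted p = 0.0296), beside a median of -0.05 over 47 autophagy and lysosome genes. Of 37 kinesin genes, 1 was 2-fold higher and 1 was 2-fold lower, beside 0.743% and 1.16% of all genes. KIF1C rose from 286 to 763 (1.33; limma adjusted p = 0.0314) and KIFAP3 fell from 632 to 299 (-1.01; limma adjusted p = 0.0274). KIFAP3 was under 2-fold with the larger offset, quantile normalization or loess (-0.93 at the least).

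Other lists had no 2-fold member. The 52 cytosolic ribosomal protein genes had a median of -0.08 and ran from -0.14 (RPL9) to 0.14 (RPL11). The 17 tRNA synthetases had a median of 0.08, the 10 S100 genes of -0.02, and the 16 aldehyde dehydrogenases of -0.08. The 39 NRF2 targets and pentose phosphate genes had a median of -0.14, with GPX2, a glutathione peroxidase high in A549, at 4278 and 2348 (-0.86). The antioxidant motif TGACNNNGC was in 7 of 29 of their promoters (24.1%), beside 11.03% of all promoters. The 22 HOX genes had a median of 0.10, with HOXB7 the highest at 0.69. Of the 243 genes 2-fold in A549, 48 are on a pathway list, 22 higher and 26 lower.

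Genes outside the lists also had large ratios. ZBED3-AS1, a long noncoding RNA, read 85.5 and 832 in A549 (2.90, the highest of the genes kept) and 96.5 and 97.7 in H1299. Its 3 other probe sets were below the minimum and level. VWC2, a secreted BMP-binding protein, read 34.8 and 232 in A549 (2.02). GNG4, a G protein gamma subunit, read 230 and 754 in A549 (1.60), against 323 and 240 in H1299. GAB1, an adaptor of receptor kinases, read 40.5 and 218 (1.82), while its other kept probe sets had ratios below 0. At the other end HIPK3, a homeodomain-interacting kinase, fell from 3024 to 697 in A549 (-2.07) and from 2702 to 407 in H1299 (limma adjusted p = 0.0239). The other kept HIPK3 probe set read 94.0 and 97.3, and the mean of both gave -1.02. RNF141 fell from 1204 to 287 (-1.96), SMIM15 fell from 1362 to 404 (-1.68), SAMTOR, a sensor of S-adenosylmethionine, fell from 747 to 211 (-1.69), and CENPQ, a centromere protein, fell from 422 to 112 (-1.67; limma adjusted p = 0.0274). LOC728392 read 811 and 197 in A549 (-1.89), against 744 and 1045 in H1299. SYNGR3, a synaptic vesicle protein, read 707 and 192 in A549 (-1.73), against 1026 and 920 in H1299. The taste receptor gene TAS2R40 read 145 and 29.3 (-1.57), and NPTX2, a neuronal pentraxin, read 143 and 56.1 (-1.01), under 2-fold with the larger offset or quantile normalization; both were under the minimum in H1299. Of the remaining high ratios, RABL6 rose from 335 to 1111 (1.64; limma adjusted p = 0.0239), though 2 of its 3 other kept probe sets were near 0 (-0.11 and 0.02). The noncoding RNAs LINC01208 (49.8 and 224; 1.67) and LINC01279 (200.2 and 648; 1.56) were under the minimum in H1299. In A549, the scramble signals of VWC2, GAB1 and LINC01208 and the hMOF siRNA signals of TAS2R40 and NPTX2 were under the minimum. These genes were kept through the array where they were high.

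H1299 served as the only arrays not used to pick the A549 genes. Of the 148 genes 2-fold lower in A549, 139 were below 0 in H1299 (93.9%), beside 51.3% of all genes, and 99 were 2-fold lower there, beside 2.01%. Of the 95 genes 2-fold higher in A549, 77 were above 0 in H1299 (81.1%), beside 48.7% of all genes, and 35 were 2-fold higher there, beside 1.04%. No gene was 2-fold in opposite directions in the lines. The labels name the siRNAs alike in both lines, so effects of lower hMOF and other effects of the same siRNA cannot be told apart in these arrays.

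More of the higher genes than of the lower genes were weak in H1299. A mean H1299 signal under the minimum was found for 33 of the 95 higher genes and 17 of the 148 lower genes. The share of all kept genes that were this weak in H1299 was not computed, so neither count has a baseline. Of the genes at or above the minimum, 58 of 62 higher genes (93.5%) and 129 of 131 lower genes (98.5%) had the same sign in H1299. The 48.7% and 51.3% given above are over all genes, also those weak in H1299, so they are no matching baseline. The mean used here includes the H1299 hMOF siRNA array. Among the 17 higher genes with an A549 log2 ratio of 1.5 or more, 10 were under the minimum in H1299, and 12 of 17 had the same sign. Genes level in H1299 despite a signal above the minimum include ZBED3-AS1, TNC and EFEMP1.

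**Figure D4:**
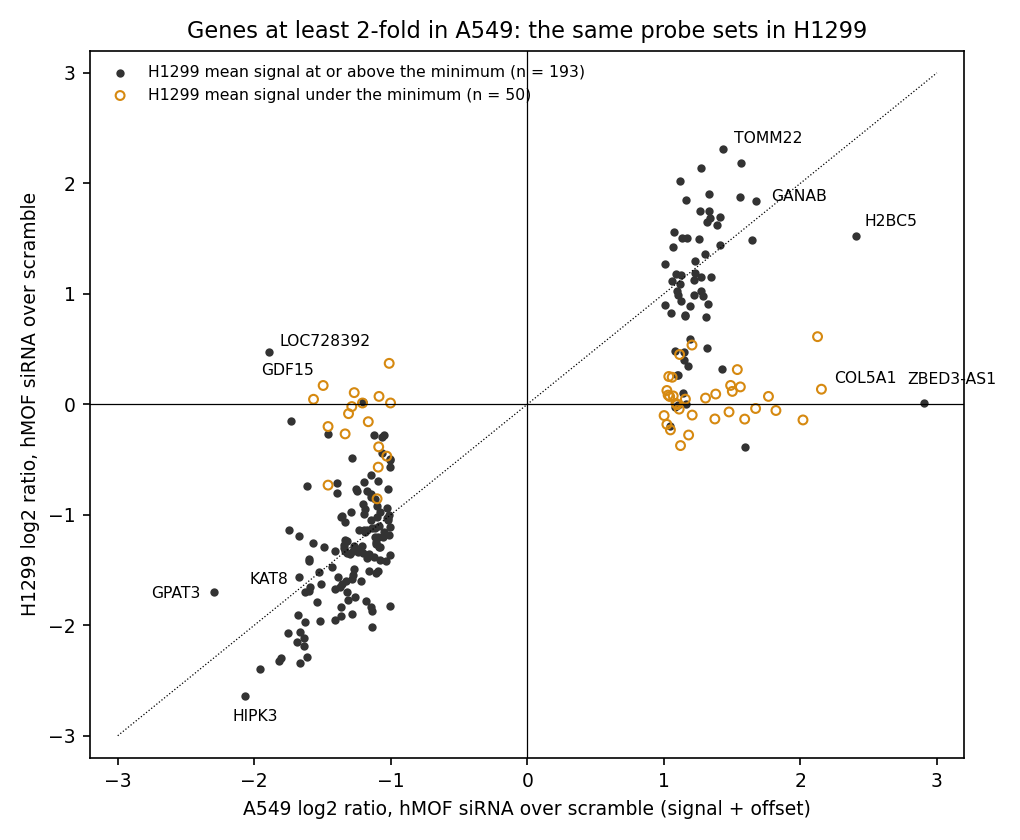
A549 log2 ratio (x) and H1299 log2 ratio (y) of the same probe sets for the 243 genes at least 2-fold in A549, 1 array on each side of each ratio; the dotted line marks equal ratios. Open circles are the 50 genes whose mean H1299 signal is under the minimum, and most of them lie near 0 on the y axis; the 193 filled points lie mostly at the lower left and upper right, with ZBED3-AS1 (2.90 and 0.01) and LOC728392 (-1.89 and 0.47) apart.

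Other probe sets of a gene test how far a ratio depends on the oligonucleotides, on the same RNA. Of the 95 higher genes, 54 had other probe sets above the minimum: 79 of these 90 probe sets were above 0 (87.8%) and 34 were 2-fold higher. Of the 148 lower genes, 74 had other probe sets: 111 of 128 were below 0 (86.7%) and 33 were 2-fold lower. No other probe set reached 2-fold for 29 of the 54 higher genes and 47 of the 74 lower genes. ASPH shows the spread: its leading probe set read 8224 and 2625, another read 3972 and 710, and 2 others read 3776 and 4172, and 2414 and 2698. YIF1B read 632 and 189 on its leading probe set, and 154 and 207 on another. GPR27 read 174 and 537 on its leading probe set and 233 and 189 on the other.

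**Figure D5:**
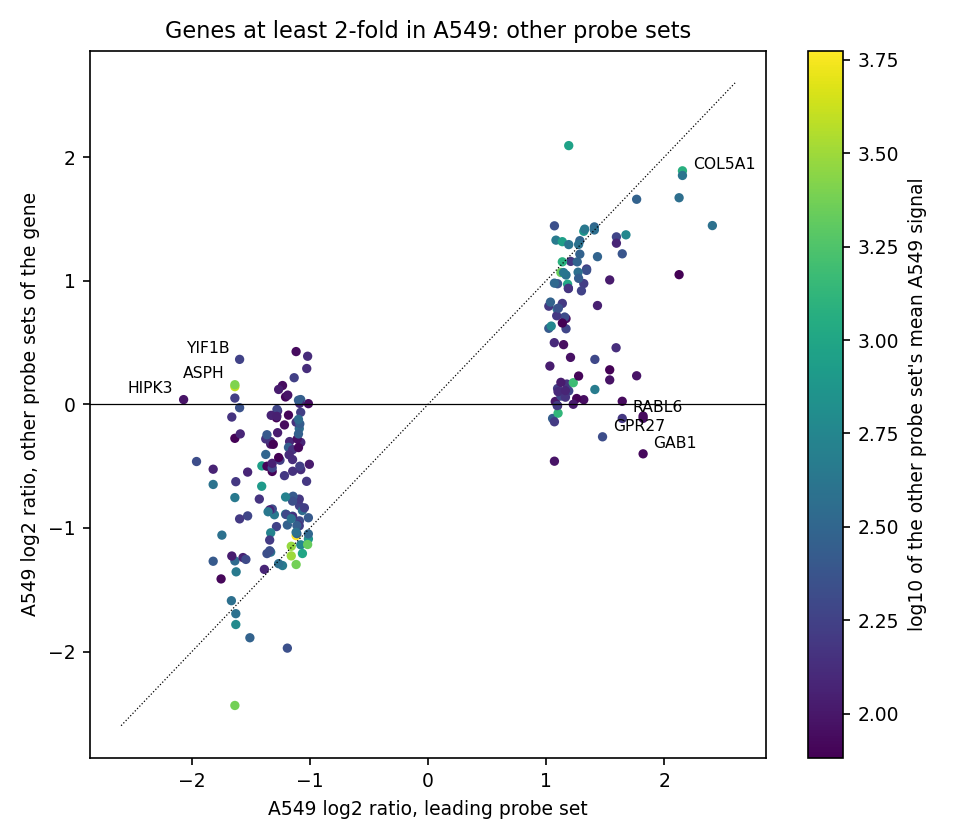
A549 log2 ratio of the leading probe set (x) and of each other kept probe set of the same gene (y), for genes at least 2-fold by the leading one; colour is log10 of the other probe set's mean A549 signal, and the dotted line marks equal ratios. Most points lie on the same side of 0 as the leading probe set but nearer to 0; the medians of the other probe sets were 0.79 for higher genes and -0.60 for lower genes.

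The 2-fold genes were 233 protein-coding genes, 8 long noncoding RNA genes (6 higher and 2 lower) and 2 of other or no listed type. Kept genes that were not 2-fold included 11687 protein-coding and 642 long noncoding RNA genes. By gene length, 2.69% of genes in the longest of 4 equal bins and 1.38% in the shortest were 2-fold. Among genes kept and ordered by start, 7 adjacent pairs were both 2-fold, with starts 2105 to 1023966 bases apart. The number of such pairs to be met without any link was not computed. H2AC6 and H2BC5 were both higher, as were H2AJ and WBP11. MED11 (1.56) and CXCL16 (-1.16) went in opposite directions.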

How the data were processed

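RNA of 4 samples (A549 and H1299, each with scramble or hMOF siRNA) was measured on Affymetrix arrays. The deposited intensities are MAS5 signals per probe set on a linear scale, per the submitters' processing notes; which MAS5 version, scaling target or floor applied is not given in the sources used here. Arrays were not normalized further. Genes were named from the platform annotation: of 54675 probe sets 62 are controls, 1801 name several genes and 11721 none, and 41037 of the 41091 with a single gene matched RefSeq genes of GRCh38.p14. Groups follow title and source name. Ratios, the offset, the signal minimum and the 2-fold rule are as given above; with 1 array per side no p-value exists within A549. limma 3.58.1 in R 4.3.3 was fitted over 4 arrays (lmFit, eBayes, cell line as block). The code was also run on simulated data. Their variances were drawn from the distribution limma estimated on these arrays, and their effects were alike in both lines. That run therefore does not test the adjusted p-values given here. The number of arrays limits the precision.

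The rule for named genes takes KAT8, the 15 highest and 15 lowest A549 ratios, per list the 2-fold members (or the 2 with the largest ratios), the 6 largest A549 minus H1299 differences each way, and the 6 genes whose probe sets differ most. Those the results turn on are described, and further list members were named after their values were seen. The comparison, 41 pathway lists and 6 marker lists were chosen with earlier results of these data known. Promoters are RefSeq's, 1 per gene by first listed start. Alternatives changed the offset, signal filter, normalization, probe set rule, fold and model. Some genes are not reported here.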

Additional observations from a re-analysis of the deposited data

Results flagged for a closer look

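Probe sets without a single named gene were left out of the comparison. Of 4540 such probe sets above the signal minimum, 26 were 2-fold higher or more in A549, 30 were 2-fold lower or more, and 4 had a log2 ratio of 2 or more. Probe set 237794_at, which the annotation gives to several genes, read 17.4 with scramble siRNA and 699 with hMOF siRNA (log2 ratio 3.95), and 19.1 and 26.3 in H1299. Probe sets 239089_at (11.8 and 349; 3.19), 1555099_at (16.4 and 284; 2.77) and 235456_at (289 and 1404; 2.17) have no gene in the annotation. The scramble signals of the first 3 of these lie under the offset of 29.68, so the ratios depend on it. Groups of 1 array allow no check for a sample that stands apart.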

How the results depend on the processing

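Under the 10 alternatives to the offset, filter, normalization and probe set rule, the A549 counts ranged from 69 to 140 higher and from 110 to 202 lower. The limma count of higher genes was 354 after quantile normalization. Without the cell line block limma called 0 higher and 0 lower (380 genes at an unadjusted p under 0.05). At 1.5-fold there were 449 higher and 749 lower A549 genes, and at 3-fold 12 and 25. Of the 68 2-fold genes that the naming rule takes, 49 stayed 2-fold and 66 kept their sign under each of these alternatives that gave a value; GAB1 (-0.40) and GPR27 (-0.26) changed sign when probe set and filter were taken from all 4 arrays, where another probe set leads. The histone median moved by 0.32 (to 0.09 without _x_at probe sets), the aldehyde dehydrogenase median by up to 0.17 and those of the other lists by up to 0.14. The medians of 13 of 41 lists (among them MSL and NSL complexes and mesenchymal genes) changed sign under an alternative, with sizes up to 0.14. With the mean of a gene's probe sets, COL1A1 (0.55), STC2 (-0.76), DOCK5 (-0.84), YIF1B (-0.55), RABL6 (0.69), MSL1 (0.38), UGGT1 (-0.36), ASPH (-0.75) and H2AJ (0.61) were under 2-fold. The cause of the other moves was not tested. No paired analysis was possible because the labels give no replicate numbers and each group is 1 array; the limma fit pairs treatments by cell line only. Of 41 matrix genes, 14 had H1299 signals under the minimum, which limits their ratios there.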

Other observations

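Further genes outside the lists were 2-fold higher in A549 with hMOF siRNA; they were picked after their values were seen and stand for no tested group. GREM1, a secreted BMP antagonist, read 647 and 1505 (log2 ratio 1.18), and BMPER, another secreted BMP modulator, read 181 and 425 (1.11). HAS2, which makes hyaluronan, read 99.4 and 268 (1.21). FLRT2, a cell-surface adhesion protein, read 208 and 639 (1.49), and ACKR3, an atypical chemokine receptor, read 149 and 436 (1.38). In H1299 the signals of these 5 genes ran from 7.68 (ACKR3) to 31.5 (GREM1), under the signal minimum. Above the minimum in both lines, TPM4, a tropomyosin, rose from 678 to 1586 in A549 (1.19; limma adjusted p = 0.0296), LPP, of focal adhesions, read 943 and 2109 (1.14), and MICAL2, an actin oxidase, read 632 and 1392 (1.10). In H1299, LPP read 929 and 999, and MICAL2 read 545 and 662.

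Genes outside the lists that were 2-fold lower in A549 and lower in H1299, likewise picked after their values were seen, include the following. MAP3K7, the kinase TAK1, had log2 ratios of -1.34 in A549 and -1.30 in H1299. STK3, a Hippo pathway kinase, had -1.24 and -1.34, and NF2, its upstream regulator merlin, had -1.11 and -1.25. PPP2R1B, a scaffold of protein phosphatase 2A, had -1.43 and -1.48. DICER1, which cuts miRNA precursors, had -1.01 and -1.18, and HPRT1, of purine salvage, had -1.34 and -1.06.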
